A study of Mus musculus with 6 samples.

Results

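The probes described here are the 1104 oligonucleotides on a mouse lncRNA array whose names begin with humanlincRNA, out of 60915 non-control probes. They were chosen by their name, with earlier results of these data known. The number in the name stands for a lincRNA locus, and the plus or minus sign for the strand. The name is taken to mean a mouse counterpart of a human long intergenic noncoding RNA. The scanner files pair these numbers with no gene and no position, so each transcript is called by its number. The RNA came from C2C12, an established mouse line of skeletal muscle precursor cells. The 3 myoblast arrays measured cells grown in 10% fetal bovine serum, and the 3 myotube arrays measured cells of the same line taken at 80 to 90% confluence into 2% horse serum. The series describes the 3 arrays of each group as independent experiments. Neither the time in horse serum nor the share of fused cells is given in the sources used here. No probe is named for myogenin, a myosin heavy chain or another defining gene of either state, so the labels could not be checked against markers.

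Long intergenic noncoding RNAs are transcribed from stretches between protein-coding genes and are often spliced and polyadenylated, like messenger RNAs, without being translated. They are usually less abundant and more restricted to particular tissues than messenger RNAs, and their sequences tend to be poorly conserved, so that a counterpart in another mammal is often recognised by its place beside the same genes. Some act on chromatin or transcription close to where they are made. In muscle, the noncoding RNA linc-MD1 is known as a decoy for microRNAs during the step from myoblast to myotube. Roles of the numbered transcripts below are not given in the sources used here.

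Most of the humanlincRNA probes gave no signal above background in either state. A probe was counted as detected on an array when the scanner software marked it as well above background. By that mark 758 of the 1104 probes (68.7%) were detected on none of the 6 arrays, against 31.4% of all non-control probes. Another 146 (13.2%, against 49.0% of all probes) were detected on all 6. The mouselincRNA probes, a second series on the array, were much like them, with 67.5% on none and 13.9% on all 6 arrays. The 83 probes of another lincRNA series, MM9LINCRNAEXON, were less so, with 51.8% on none and 30.1% on all 6. Most of the non-control probes, 58141, belong to the catalogue series ASMM10P. Levels below are log2 processed signal minus the 75th percentile of the array, so that 0 is the 75th percentile. On this scale the median humanlincRNA probe lay between −6.40 and −5.50 on the single arrays. The 15 probes with a negative-control name had medians between −6.94 and −5.52, and the median over all probes lay between −3.04 and −2.89.

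The number detected differed more between myoblast arrays than between the states. In replicate order, the myoblast arrays detected 318, 230 and 186, and the myotube arrays 180, 190 and 218. The myotube counts overlapped those of the myoblasts. Myoblast replicate 1 stood above the rest, and 77 of the 96 probes detected on a single array were detected there. The lowest level marked as well above background was also lowest on that array, at −4.86, against −3.95 to −3.41 on the other arrays. Over all non-control probes 66.3% were detected on myoblast replicate 1 and 52.6% to 58.4% on the other arrays. Of the 300 spots with a negative-control name, 39 were marked well above background on myoblast replicate 1. Myoblast replicates 2 and 3 had 16 and 9 such spots, and myotube replicates 1, 2 and 3 had 14, 4 and 5. The mark alone therefore does not show a transcript. The part of background in these counts was not tested.

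The test took in probes detected on 3 or more arrays, 221 of the 1104. They came from 196 numbers, 110 from the plus and 111 from the minus strand. Just inside this rule stood 29 probes detected on exactly 3 arrays, with mean levels from −4.49 to −3.33. The brightest were humanlincRNA2208+ (−3.33) and humanlincRNA1070- (−3.45). Just outside stood 29 probes detected on 2 arrays, with mean levels from −4.82 to −3.61, the brightest being humanlincRNA0663- (−3.61) and humanlincRNA1273- (−3.69). The levels on both sides overlapped. A probe that passed through the arrays of 1 state could do so because it was higher there, so counts of tested probes do not speak for all 1104.

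Fewer of the tested humanlincRNA probes differed between myotubes and myoblasts than of the array as a whole, and more of them fell than rose. In limma's fit over all 35487 tested probes, with Benjamini-Hochberg adjustment at 0.05, 71 of 221 changed (32.1%), against 50.4% of all tested probes. In myotubes 24 were higher (10.9%, against 23.4%) and 47 were lower (21.3%, against 26.9%). At least 2-fold, 15 changed (6.79%, against 17.6%), with 5 higher where the background share was 9.05% and 10 lower where it was 8.52%. These shares describe the probes, and no test sets them against each other. In RNA from whole cultures, fewer cells of a type and less RNA per cell cannot be told apart. Among the 146 probes detected on all 6 arrays the picture was alike, with 48 changed (32.9%, against 50.2% of all such probes) and 6 at least 2-fold (4.11%, against 14.6%). On the plus strand 12 rose and 26 fell, and on the minus strand 12 rose and 21 fell.

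The changes were modest in size. The median change of the tested humanlincRNA probes was −0.13 on the log2 scale, with quartiles at −0.56 and 0.23. Over all tested probes the median was −0.07, with quartiles at −0.47 and 0.37. Within the scan that holds both states, described next, the medians were −0.02 and −0.03, so the lower median of the humanlincRNA probes was not seen there. Among those that rose the change ran from 0.28 to 1.70 with a median of 0.70, and among those that fell from −0.34 to −2.20 with a median of −0.80. The values of the groups did not overlap for 28 probes that were higher in myotubes (12.8%, against 27.8% of all tested probes) and for 62 that were lower (28.3%, against 33.8%). That count covers the 219 probes with a usable spot on every array, and includes each of the 71 that changed. Replicates scattered more among myotubes: the median SD of a humanlincRNA probe was 0.135 in myoblasts and 0.309 in myotubes, against 0.0845 and 0.201 over all tested probes.

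Array scans overlapped the comparison. Per the file headers, myotube replicate 1 was scanned together with the 3 myoblast arrays, and myotube replicates 2 and 3 each had a scan of their own. Within the shared scan the myotube side is a single array, so every p given for that scan takes its spread from the myoblasts and assumes that a myotube array varies like them, although the myotube SD was larger. On that footing 76 of 220 probes changed (34.5%, against 47.7%). Of these 36 were higher and 40 lower, against 22.3% and 25.4% over all probes. In both fits 48 changed (21.8%, against 39% of all probes), 18 higher and 30 lower. Those fits share 4 arrays. Of the 47 probes that fell, myotube replicate 1 was the highest of the 3 myotube arrays in 29 (61.7%, against 59% of all probes that fell). Of the 24 that rose, it was the lowest in 10 (41.7%, against 55.3%). Without myotube replicate 1 the count at least 2-fold was 28, with 6 higher (2.71%, against 10% of all tested probes) and 22 lower (9.95%, against 10.7%).

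The rise of largest size was in humanlincRNA0717-, 3.24-fold (log2 change 1.70, SE 0.37, limma adjusted p = 0.00857). Its level was −1.41, −1.10 and −1.35 in myoblasts and −0.52, 0.89 and 0.88 in myotubes. The states did not overlap, but myotube replicate 1 lay nearer to the myoblasts than the others, and within the shared scan the change was 0.76 (limma adjusted p = 0.0205). Next in size among probes detected on all 6 arrays was humanlincRNA0806+, at −1.82, −2.08 and −2.02 in myoblasts and −0.77, −1.13 and −1.25 in myotubes (log2 change 0.92, SE 0.15, limma adjusted p = 0.00248). Here myotube replicate 1 was the highest array.

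Several further rises were smaller, with a myotube SD of 0.126 for humanlincRNA1382- and 0.297 for humanlincRNA2246+. The level of humanlincRNA1382- was −1.81, −1.82 and −2.16 in myoblasts and −1.14, −1.01 and −0.89 in myotubes (log2 change 0.92, SE 0.13, limma adjusted p = 0.00144). That of humanlincRNA2246+ was −1.65, −1.93 and −1.90 against −0.95, −1.26 and −0.67 (log2 change 0.87, SE 0.17, limma adjusted p = 0.00520). In both, the lowest myotube array stood above the highest myoblast array. humanlincRNA0388+ rose by 0.68, humanlincRNA1362- by 0.65, humanlincRNA2281- by 0.60 and humanlincRNA1150- by 0.56 (log2, limma adjusted p between 0.00272 and 0.00533). Under normexp, a model-based background correction added as an alternative once the values were known, the changes of humanlincRNA0806+, humanlincRNA1382-, humanlincRNA1362- and humanlincRNA2281- were 0.58, 0.61, 0.34 and 0.30 and still passed.

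The 4 other rises of at least 2-fold were in dim probes, detected on 3 to 5 arrays. humanlincRNA0373+ and humanlincRNA0490- are described with the strands and the probes detected in one state. humanlincRNA0857+ (−5.13, −3.75 and −5.18 against −1.93, −3.74 and −3.39, log2 change 1.66, limma adjusted p = 0.0427) and humanlincRNA1256+ (−4.23, −4.37 and −4.85 against −3.24, −3.55 and −3.17, log2 change 1.16, limma adjusted p = 0.00232) were named after their values were seen. The call of humanlincRNA0857+ was lost with normexp (0.164) and without myoblast replicate 1 or 3 or myotube replicate 1 or 3 (0.0743 to 0.119). The largest fall of a probe on 5 arrays, humanlincRNA1098+, was also named so, at −1.78, −1.83 and −1.89 against −3.62, −3.33 and −3.17 (log2 change −1.54, SE 0.13, limma adjusted p = 0.000123). With normexp the changes of humanlincRNA1256+ and humanlincRNA1098+ were 0.26 and −0.86.

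The other rises among the 12 largest on all 6 arrays were narrower calls. humanlincRNA1945- rose by 0.85 (limma adjusted p = 0.0168), a call lost within the shared scan (0.119) and without myoblast replicate 2 or 3 or myotube replicate 2 or 3 (0.0521 to 0.0584). humanlincRNA0469- rose by 0.71 (limma adjusted p = 0.0257), lost within the shared scan (0.0703) and without myoblast replicate 3 (0.0643), myotube replicate 1 (0.0537) or myotube replicate 3 (0.0865). humanlincRNA1543- rose by 0.54 (limma adjusted p = 0.0147), lost within the shared scan (0.0674) and without myoblast replicate 2 (0.0576). humanlincRNA0638+ rose by 0.60 (limma adjusted p = 0.00273), lost with normexp (0.0679). With normexp the changes of humanlincRNA0469- and humanlincRNA1543- were 0.35 and 0.26.

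Among probes detected on all 6 arrays the steepest fall was in humanlincRNA1747+, 3.27-fold (log2 change −1.71, SE 0.20, limma adjusted p = 0.00047). Its level was 0.64, 0.41 and 1.16 in myoblasts and −0.83, −1.08 and −1.003 in myotubes. The 3 myotube arrays lay close together, and within the shared scan the change was −1.57 (limma adjusted p = 0.0228). humanlincRNA0324- fell 2.87-fold, from 3.76, 3.46 and 3.61 to 2.42, 1.70 and 2.16 (log2 change −1.52, SE 0.19, limma adjusted p = 0.000739). humanlincRNA0132+ fell 2.18-fold, from −1.44, −1.65 and −1.66 to −2.77, −2.75 and −2.60 (log2 change −1.12, SE 0.11, limma adjusted p = 0.000216). Each of these myotube sets lay wholly below the myoblasts. For humanlincRNA0132+ the change was −0.66 with normexp (limma adjusted p = 0.000349), and for humanlincRNA2338+, described next, −0.75 (0.00177).

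In other falls myotube replicate 1 lay between the myoblasts and the other myotubes. humanlincRNA2338+ stood at −1.78, −1.88 and −2.02 in myoblasts and −2.71, −3.65 and −3.37 in myotubes (log2 change −1.35, SE 0.23, limma adjusted p = 0.00314). humanlincRNA2163- stood at 4.01, 4.16 and 4.05 against 3.32, 2.89 and 2.68 (log2 change −1.11, SE 0.17, limma adjusted p = 0.00173). humanlincRNA1050+ stood at 2.05, 2.02 and 2.11 against 1.57, 0.78 and 0.95 (log2 change −0.96, SE 0.20, limma adjusted p = 0.00713). Within the shared scan, from 1 myotube array, these changes were −0.82, −0.76 and −0.49. humanlincRNA0267- changed by −0.93 (limma adjusted p = 0.00508) and by −0.52 within that scan (limma adjusted p = 0.00874). humanlincRNA1094- fell by 0.90 on the log2 scale with little scatter (SE 0.11, limma adjusted p = 0.00053).

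Another 4 of the 12 largest falls were narrow calls, each lost in more than 1 of the fits that left out an array. humanlincRNA0955+ changed by −0.93 (limma adjusted p = 0.0211), lost without any 1 of the myoblast arrays (0.0532 to 0.0603), and by −0.49 within the shared scan. humanlincRNA1596+ changed by −0.92 (limma adjusted p = 0.0178), lost within the shared scan (0.184) and without myoblast replicate 3 (0.0525) or myotube replicate 3 (0.0559), and by −0.47 with normexp. humanlincRNA0997+ changed by −0.85 (limma adjusted p = 0.0475) and humanlincRNA1431+ by −0.82 (0.0301). Both of these were lost without any 1 myoblast array or without myotube replicate 2 or 3 (0.0931 to 0.143 and 0.059 to 0.102), and within the shared scan they were −0.14 and −0.22. The call of humanlincRNA0997+ was also lost with quantile normalization (0.0508). Over all 71 changed probes, 41 kept their call without any single array, and none changed sign.

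A few probes were detected on every array of one state and none of the other. There were 5 such probes for myoblasts (0.453% of the 1104, against 0.88% of all non-control probes) and 1 for myotubes (0.0906%, against 0.604%). Each entered the test only through the state where it was detected, so its p is given for completeness and supports no difference by itself. humanlincRNA1416- had levels of −2.88, −3.57 and −2.58 in myoblasts, and in myotubes, where it was not well above background, −5.47, −4.98 and −5.19. With each dim array raised to the lowest level well above background on it, the probe was at least 1.57-fold lower in myotubes. The change was −2.20 as measured (limma adjusted p = 0.000534) and −0.72 with normexp. humanlincRNA2354+ stood at −3.09, −3.23 and −2.66 against −3.72, −3.96 and −4.19, at least 1.59-fold lower by the same bound. Its change was −0.97 as measured (limma adjusted p = 0.00485) and −0.36 with normexp, where the call was lost (0.0545). The call was also lost within the shared scan, where the change was −0.73. In the other direction humanlincRNA0490- stood at −5.18, −4.58 and −4.01 in myoblasts and −2.86, −3.69 and −2.92 in myotubes. It was at least 1.89-fold higher there by the same bound. Its change was 1.44 as measured (limma adjusted p = 0.0113) and 0.34 with normexp. That call was lost without myotube replicate 3 (0.0503) and with normexp (0.0582). The other 3, humanlincRNA0997-, humanlincRNA1612+ and humanlincRNA1638-, did not pass, with changes of −0.56, −0.30 and −0.43 (limma adjusted p = 0.401, 0.348 and 0.181). These bounds hold for the processed signal only, set normalised means of 3 arrays against each other and cover no counting error. With normexp the changes of humanlincRNA2354+ and humanlincRNA0490- were smaller in size than their bounds, which are 0.67 and 0.92 on the log2 scale.

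The probes with the highest signal behaved differently from one another. Signal also depends on the probe sequence, so no order of transcript amounts is read from it. humanlincRNA2438+ was steady at 6.36, 6.35 and 6.30 in myoblasts and 6.26, 6.27 and 6.07 in myotubes, a change of −0.13 (95% interval −0.37 to 0.10, limma adjusted p = 0.294) and 0.08 under quantile normalization. humanlincRNA0065- rose a little, from 4.47, 4.49 and 4.51 to 4.89, 5.00 and 4.93 (log2 change 0.45, SE 0.09, limma adjusted p = 0.00578). humanlincRNA2163+, at 3.80, 3.75 and 3.66 against 3.51, 3.49 and 3.52, changed by −0.23 (95% interval −0.45 to −0.01, limma adjusted p = 0.0737).

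The other bright probes split the myotube arrays. humanlincRNA2397+ stood at 6.24, 6.71 and 5.87 in myoblasts and at 6.84, 4.62 and 5.51 on myotube replicates 1, 2 and 3. humanlincRNA1739+ stood at 5.11, 5.42 and 5.09 against 5.78, 2.95 and 4.87. humanlincRNA2330+ stood at 5.04, 4.92 and 5.03 against 5.62, 4.11 and 4.46. In all 3 the first myotube array was above every myoblast array and the other two were below, so that the mean changes of −0.62, −0.67 and −0.27 missed the threshold (limma adjusted p = 0.364, 0.417 and 0.561). Within the shared scan the single myotube array was 0.62 above the myoblast mean for humanlincRNA2330+, and without myotube replicate 1 it was lower, at −0.71 (0.00338). The probe for the minus strand of the same number, humanlincRNA2397-, stood at 1.77, 1.70 and 1.76 against 1.30, 0.92 and 1.09 and fell by 0.64 on the log2 scale (SE 0.12, limma adjusted p = 0.00459). The strand difference did not pass (0.02, 95% interval −1.21 to 1.24). Without myotube replicate 1 humanlincRNA2397+ passed too, at −1.21 (limma adjusted p = 0.0227). Within the shared scan its change was the other way, at 0.56. This pattern was seen in 19 tested humanlincRNA probes with a usable spot on every array (8.68%, against 4.01% of all tested probes), and the opposite one in 6 (2.74%, against 3.42%). Scan and culture cannot be told apart for myotube replicates 2 and 3.

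Most numbers carried a probe for each strand, which allowed the strands of a locus to be compared. Of 547 such pairs on the array, 25 had both probes among those tested, 169 had 1 and 353 had none. Among the 25, both strands changed in 3 pairs, 1 strand in 10 and neither in 12. The changes had the same sign in 15 pairs. Over the 25 pairs Pearson's r between the strands' changes was 0.07 and Spearman's rho 0.06. This is a description across pairs measured on the same arrays.

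Whether a change differed between strands was tested on the plus minus minus difference of each array, with limma over the 43 lincRNA-named pairs of any series with both strands tested. The difference passed in 8 of the 25 humanlincRNA pairs (32.0%, against 41.9% of the 43). The 43 include these 25, so the 2 shares are not separate. For humanlincRNA0373 the plus strand rose from −3.27, −3.64 and −3.21 to −2.25, −1.55 and −1.54. The minus strand stood at −3.19, −3.44 and −3.54 against −3.37, −3.74 and −3.33. The changes of humanlincRNA0373+ (1.60) and humanlincRNA0373- (−0.09) differed by 1.69 (SE 0.32, limma adjusted p = 0.0140). With normexp the change of humanlincRNA0373+ was 0.80 (limma adjusted p = 0.00321).

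In humanlincRNA1747 the strands parted the other way. humanlincRNA1747+ fell by 1.71 on the log2 scale, while humanlincRNA1747-, at −2.90, −2.34 and −2.35 in myoblasts and −1.98, −3.14 and −3.02 in myotubes, changed by −0.19. The difference was −1.52 (SE 0.35, limma adjusted p = 0.0210). In humanlincRNA2354 the plus strand was lower in myotubes while humanlincRNA2354- stood at −1.65, −1.64 and −1.62 against −1.32, −1.62 and −1.20 (difference −1.22, SE 0.26, limma adjusted p = 0.0166). That pair entered the test only through the myoblast arrays on which humanlincRNA2354+ was detected, so its difference is not independent of the detection rule. In humanlincRNA1094 the minus strand fell while humanlincRNA1094+ changed by −0.15 (difference 0.75, SE 0.16, limma adjusted p = 0.0166). In humanlincRNA2163 the minus strand fell and the plus strand changed by −0.23 (difference 0.88, SE 0.22, limma adjusted p = 0.0244). humanlincRNA1396+ fell by 0.60 on the log2 scale, whereas humanlincRNA1396- changed by 0.02 (difference −0.62, SE 0.17, limma adjusted p = 0.0280).

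The remaining differences were smaller. In humanlincRNA1050 the plus strand fell by 0.96 and the minus strand changed by −0.41, a difference of −0.55 (limma adjusted p = 0.0440). In humanlincRNA0367 the strands moved in opposite directions, with humanlincRNA0367+ at 0.28 (limma adjusted p = 0.0493) and humanlincRNA0367- at −0.34 (0.0433), a difference of 0.62 (SE 0.17, limma adjusted p = 0.0280). Both single-strand calls were lost under most of the alternatives run, among them leaving out any 1 myoblast array (0.0814 to 0.181). Pairs with both strands down were humanlincRNA2159, at −0.72 for humanlincRNA2159+ and −0.67 for humanlincRNA2159-, and humanlincRNA1145, at −0.79 for humanlincRNA1145+ and −1.64 for humanlincRNA1145-. The last probe was detected on all 3 myoblast arrays, but among myotubes on replicate 3 only. On myotube replicates 1 and 2 it stood at −4.95 and −5.69, below the lowest level well above background there (−3.42 and −3.80). The call of humanlincRNA1145- was lost without any 1 myoblast array or without myotube replicate 1 or 2 (0.0576 to 0.0722), that of humanlincRNA1145+ within the shared scan (0.0666), and that of humanlincRNA2159- within the shared scan (−0.36, 0.0632) and without myoblast replicate 1 or 2 or myotube replicate 3 (0.0508 to 0.07). With normexp humanlincRNA1145- changed by −0.42 and humanlincRNA2159+ by −0.32. In these pairs the strand difference did not pass (−0.05, 95% interval −0.49 to 0.39, and 0.85, 95% interval −0.54 to 2.24).

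These strand differences rested on few arrays and on the model. With the replicate number as a block limma called none of the humanlincRNA pairs. The count of 8 pairs became 2, 3 and 1 without myoblast replicates 1, 2 and 3, and 10, 4 and 6 without myotube replicates 1, 2 and 3. Within the shared scan it was 2, humanlincRNA1145 and humanlincRNA1747.

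Numbers that follow each other were compared last, without any statement in the sources used here that the numbering follows the genome. There were 16 pairs of neighbouring numbers with a tested probe each, and in 2 of them both held a changed probe. In both the directions were opposite. Of single tested humanlincRNA probes 32.1% changed, and no test sets the 2 cases against that share. No pattern is read from them. humanlincRNA1150- rose by 0.56 while humanlincRNA1151+ changed by −0.37 (limma adjusted p = 0.0473), and humanlincRNA2281- rose by 0.60 while humanlincRNA2282- changed by −0.66 (limma adjusted p = 0.0357). The calls of humanlincRNA1151+ and humanlincRNA2282- were lost within the shared scan (0.0593 and 0.0601) and without any 1 myoblast array (0.0822 to 0.145 and 0.0518 to 0.112). With normexp the changes were −0.16 (0.158) and −0.41 (0.0148).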

How the data were processed

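Each of the 6 samples was hybridised to its own 1-colour Agilent array, and the files hold 1 scanner table per array. Per the file headers, the deposited intensity values (processed, median and background signals) came from Agilent Feature Extraction 11.0.1.1, and the array design refers to mouse build mm9. The authors also deposited a table of normalized log2 values, used here only as an alternative. Control spots and spots flagged as outliers were left out, together with the 15 probes named as negative controls, and spots of one probe were averaged. The log2 processed signal minus the array's 75th percentile was fitted with limma 3.58.1 in R 4.3.3 (lmFit and eBayes) over all 35487 probes well above background on at least 3 arrays, with Benjamini-Hochberg adjustment at 0.05. Of the tested probes described, humanlincRNA1395+ and humanlincRNA1907- each miss 1 array. The strand difference was fitted the same way over 43 pairs. The number of arrays, 3 per group, limits the precision.

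Named probes are the 12 largest rises and falls detected on all 6 arrays, those detected in one state only, the 5 with the highest level per state, pairs with both strands tested, and the brightest beside the detection rule. Pairs in which neither strand changed were counted but not written out as pairs, and humanlincRNA2246- was not written out. Changed probes of neighbouring numbers and the probes said to be named after their values were seen were added. The probes and these lists were chosen with earlier results of these data known. The scripts were tested on simulated data with the same layout of arrays: over 35487 probes the fit recovered 0 of 50 changes of 0.5, 36 of 50 of 1 and 49 of 50 of 2 on the log2 scale. It also recovered 47 of 50 changes of −2, and it made 4 false calls. Few simulated probes changed, whereas 50.4% of the real tested probes were called, so the adjustment was stricter in the simulation. These shares therefore do not measure what the fit detects in the data, where a change of 0.28 was called. The strand fit over 43 pairs recovered 8 of 8 changes of 2 and made 2 false calls. It gave every pair the same spread and a change larger than any strand difference called here (at most 1.69). It therefore does not show how well differences of the reported size are recovered. Alternatives were quantile normalization, the deposited log2 table, normexp, other filters, outlier spots kept, scan or replicate number as a block, a trended robust variance, and leaving out each array. Normexp used the median signal and an offset of 50, and was chosen after seeing the data.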

Additional observations from a re-analysis of the deposited data

How the results depend on the processing

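The count of changed humanlincRNA probes, 71, ran from 49 to 76 under other normalizations, filters, blocks and variance models, and from 48 to 101 on leaving out 1 array (101 without myotube replicate 1). The count at least 2-fold, 15, was 4 with normexp, 26 with no filter on dim probes and 6 among probes detected on all 6 arrays, and ran from 12 to 28 on leaving out 1 array. The median change, −0.13, was 0.27 with no filter, where 1104 mostly undetected probes enter, −0.02 with the scan as a block and −0.21 to −0.04 on leaving out 1 array. Detected probes, 221, numbered 146 on all 6 arrays and 346 on at least 1. The 8 strand differences became 2 with the scan as a block, where limma gave 8 pairs with an unadjusted p under 0.05, and 1 to 10 on leaving out 1 array. With the replicate number as a block limma called 0 of these pairs (7 had an unadjusted p under 0.05), 68 changed probes and 16 at least 2-fold. Deviations from the group mean correlated at r = −0.15, −0.00 and −0.09 for same-numbered arrays, and at −0.12 to 0.14 for the others. Within a group of few arrays such deviations are tied to each other, so this check cannot decide whether same-numbered arrays are paired. Of 58 named probes 43 changed, 24 of these kept their call and direction under every alternative run, and none of the 43 reversed. These 58 leave out most probes of the pairs in which neither strand changed, so they lean towards changed probes. Changes that missed the threshold did reverse. humanlincRNA2438+ was 0.084 with quantile normalization and 0.083 in the deposited table. Within the shared scan humanlincRNA0373- was 0.018, humanlincRNA0997- 0.35, humanlincRNA1094+ 0.075, humanlincRNA1396- −0.042, humanlincRNA1612+ 0.14, humanlincRNA1739+ 0.58, humanlincRNA1747- 0.55, humanlincRNA2330+ 0.62 and humanlincRNA2397+ 0.56. On leaving out 1 array the change of humanlincRNA0373- ran from −0.16 to 0.038, of humanlincRNA1739+ from −1.29 to 0.12, of humanlincRNA1747- from −0.55 to 0.026, of humanlincRNA2330+ from −0.71 to 0.041 and of humanlincRNA1396- from −0.0030 to 0.058. The cause of these differences was not tested. Normexp on the mean signal was not run, since the median signal was used in its place. Dim probes lie close to background, which limits their folds.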
